A study of Mus musculus with 2 samples.

Results

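The Toll-like receptor genes *Tlr1* to *Tlr9* and the adaptor gene *Myd88* were examined in mouse tongue. Members were taken by their gene symbol, and each of the 10 had 1 row among the 18043 rows of the deposited table that carry a symbol. The study compared the circumvallate papillae (CvP), the taste bud-bearing papillae at the back of the tongue, with the epithelium without papillae (Epi) by poly(A) RNA sequencing. Both samples came from male C57BL/6J mice of 12 to 30 weeks kept on normal chow, and RNA of at least 20 mice was pooled into 1 library per tissue. There were therefore no replicates and no tests, and every comparison is between these 2 libraries.

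Toll-like receptors are membrane proteins of innate immunity that bind molecules of microbes with a leucine-rich repeat ectodomain and signal through a cytoplasmic TIR domain. TLR1, TLR2, TLR4, TLR5 and TLR6 sit at the cell surface, where they sense lipoproteins, lipopolysaccharide and flagellin, while TLR3, TLR7, TLR8 and TLR9 sense nucleic acids in endosomes. MYD88 is the adaptor that joins nearly all of them, and the receptors of the interleukin-1 family, to the IRAK kinases and NF-kB. TLR3 signals without MYD88, through TICAM1. Macrophages, dendritic cells and neutrophils are rich in these receptors, and keratinocytes of stratified epithelia also use several of them.

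Levels are given as RPKM, reads scaled to the length of the exon model and to the number of mapped reads, as deposited. The smallest steps between values gave 28368794 mapped reads for CvP and 27905679 for Epi, so that 1 read in a gene of 3 kb was worth about 0.012 RPKM. Each CvP/Epi ratio is given with a 95% exact (Clopper-Pearson) interval from the estimated reads, which covers counting error only, not the spread between mice. The table as a whole leaned to the CvP. Of the 14918 rows with a mean RPKM of at least 0.1 over both libraries, 4994 had a ratio above 2 and 639 a ratio under 1/2, so that 88.7% of these lay on the CvP side. After division of all ratios by 1.32, the median of the rows with an RPKM of at least 1 in both libraries, the numbers were 3596 and 1118 (76.3%). This division shifts every log2 ratio by -0.40, and rescaling each library to a common sum shifts it by 0.28. A ratio between 0.825 and 1.32 therefore changes its side of 1 under one of these scalings. Taste cell markers were at a summed RPKM of 492 in CvP against 6.15 in Epi, with all 8 above a ratio of 2, and keratinocyte markers were high in both libraries.

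*Tlr1* and *Tlr6* could not be fully told apart. They are neighbours on the minus strand of chromosome 5 of NCBI37/mm9, *Tlr1* from 65316073 to 65323938 and *Tlr6* from 65344334 to 65351273. Their coding sequences hold an identical run of 229 bases, at chr5:65316776-65317004 in *Tlr1* and chr5:65345067-65345295 in *Tlr6*. It is shown because a read of 75 bases from inside it cannot be assigned to either gene:

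*Tlr1* and *Tlr6* shared run: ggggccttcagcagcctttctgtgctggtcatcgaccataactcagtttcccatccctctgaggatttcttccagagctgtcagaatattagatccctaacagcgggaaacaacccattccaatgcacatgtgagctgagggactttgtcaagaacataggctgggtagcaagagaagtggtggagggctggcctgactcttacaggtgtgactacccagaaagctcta

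Of the 75-base windows of the *Tlr1* transcript, 13.2% occurred unchanged in *Tlr6* and 32.2% matched it with up to 2 mismatches. The *Tlr6* transcript gave 13.4% and 32.8%. No window of the other 8 members occurred in the coding transcript of another gene, and none of them matched another member within 2 mismatches. The split of reads between *Tlr1* and *Tlr6* is thus uncertain.

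*Tlr2* encodes the receptor of bacterial lipoproteins, which works as a dimer with TLR1 or TLR6. It lies on the minus strand of chromosome 3 (83640194 to 83645530), with its whole coding sequence in 1 exon. The RPKM of *Tlr2* was 3.21 in CvP against 0.38 in Epi, from about 260 and 30 reads, a ratio of 8.45 (95% interval 5.83 to 12.9). Its partners were far lower. *Tlr6* had an RPKM of 0.41 in CvP against 0.03 in Epi, about 30 and 2 reads, and a ratio of 13.7 with a wide interval from 3.74 to 127. *Tlr1* had an RPKM of 0.11 in CvP against 0.03 in Epi, about 8 and 2 reads, and its interval from 0.785 to 38.0 held 1, so that a difference was not detectable at this depth. Counted together because of their shared sequence, the pair had 38 reads in CvP against 4 in Epi, a ratio of 9.35 (3.37 to 36.1). *Tlr2* thus stood above both partners in either library.

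*Tlr4*, the gene of the lipopolysaccharide receptor, was the highest Toll-like receptor of both libraries. It lies on the plus strand of chromosome 4 (66488845 to 66503830). The RPKM of *Tlr4* was 5.92 in CvP against 5.32 in Epi, a ratio of 1.11 (0.997 to 1.25). The ratio fell on the other side of 1, at 0.845, when divided by the median ratio. The listed length of *Tlr4* was 8.438 kb, against 4.077 kb in the longest coding transcript of GENCODE M1. With reads taken from the listed length the interval ran from 1.03 to 1.20.

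*Tlr5*, the gene of the flagellin receptor, lies on the plus strand of chromosome 1 (184884919 to 184906175). *Tlr5* had an RPKM of 2.20 in CvP against 0.71 in Epi, about 200 and 63 reads, and a ratio of 3.10 (2.34 to 4.21). Among the surface receptors *Tlr5* was thus between *Tlr2* and *Tlr4* in its ratio, with intervals that did not overlap either.

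*Tlr3*, the gene of the receptor of double-stranded RNA, lies on the minus strand of chromosome 8 (46481019 to 46495893) with 7 exons in GENCODE M1, and 68.3% of its coding bases are in the largest of them, the lowest share among the receptor genes. The RPKM of *Tlr3* was 4.41 in CvP against 0.42 in Epi, from about 541 and 51 reads, a ratio of 10.5 (7.82 to 14.2). Of the receptor genes with over 100 reads in the CvP, *Tlr3* had the highest ratio, and its interval overlapped that of *Tlr2*. The other endosomal receptors were close to the limit of detection. *Tlr9*, whose product binds unmethylated CpG DNA (chromosome 9, 106124929 to 106129207), had an RPKM of 0.16 in CvP against 0.02 in Epi, about 16 and 2 reads, and a ratio of 8.00 (1.85 to 70.6). *Tlr7*, the gene of a receptor of single-stranded RNA (chromosome X, 163742863 to 163768460), was at 0.08 in the CvP and listed at 0 in the Epi. Set against a floor of 3 reads in the Epi, *Tlr7* was at least 2.79-fold higher in the CvP, from about 9 reads, and the lower limit of its interval was 1.94. *Tlr8*, its neighbour on the same strand (chromosome X, 163680664 to 163701720), was at 0.04 in the CvP and listed at 0 in the Epi. Its 4 reads gave a lower limit of 0.649, so that no difference was detectable.

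*Myd88* lies on the minus strand of chromosome 9 (119245106 to 119249158). Its level was above that of every receptor and nearly equal in the libraries. The RPKM of *Myd88* was 22.3 in CvP against 23.6 in Epi, a ratio of 0.946 (0.875 to 1.02). The ratio was 0.718 when divided by the median ratio and 1.15 when both libraries were rescaled to a common sum, so its direction depended on the scaling. The listed length of 5.111 kb exceeded both the coding transcript of 1.960 kb and the 4053 bases between the start and end of the row. With reads taken from the listed length the interval ran from 0.901 to 0.993. In GENCODE M1, exons of *Myd88* share 67 bases with *Acaa1a* on the opposite strand, and the counting was not stated to use strand.

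**Figure D1:**
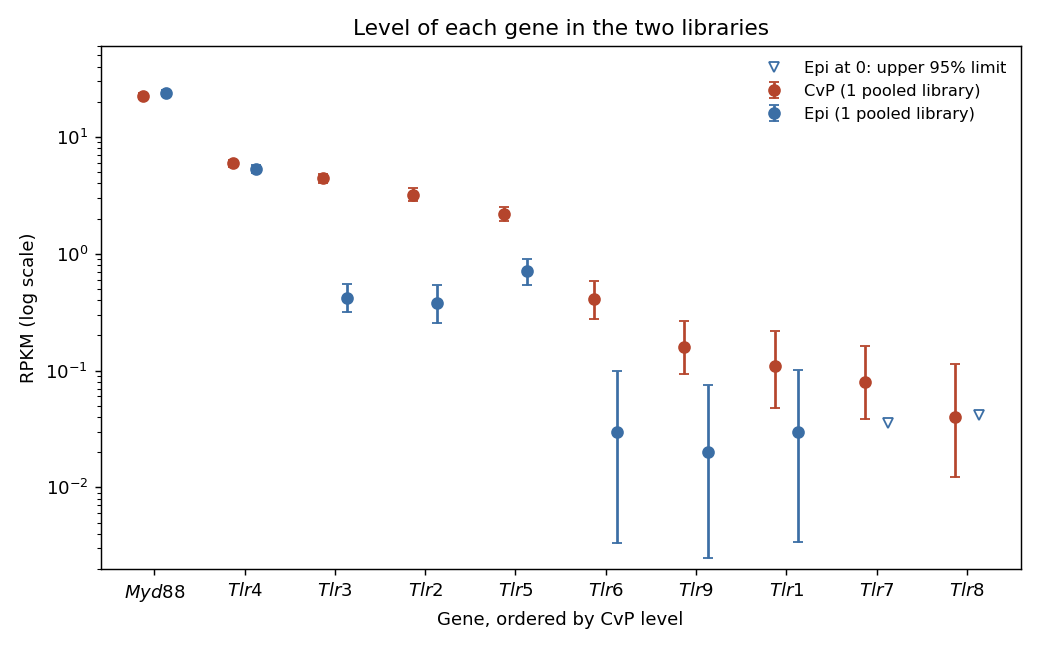
RPKM of each gene on a log scale in the CvP and the Epi, 1 pooled library each, with genes ordered by CvP level and 95% exact Poisson intervals from the estimated reads. Open triangles mark the upper limit for *Tlr7* and *Tlr8*, listed at 0 in the Epi. *Myd88* and *Tlr4* lie at like levels in both libraries, while *Tlr3*, *Tlr2*, *Tlr5* and *Tlr6* lie lower in the Epi.

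Ordered by RPKM in the CvP, *Myd88* was followed by *Tlr4*, *Tlr3*, *Tlr2*, *Tlr5*, *Tlr6*, *Tlr9*, *Tlr1*, *Tlr7* and *Tlr8*. Each step down to *Tlr9* was larger than counting error, the smallest being that from *Tlr4* to *Tlr3*, a ratio of levels of 1.34 (1.20 to 1.51). From *Tlr9* down through *Tlr1* and *Tlr7* to *Tlr8*, no step was larger than counting error. In the Epi the order of the detected genes was *Myd88*, *Tlr4*, *Tlr5*, *Tlr3*, *Tlr2*, *Tlr1* and *Tlr6* at the same level, and *Tlr9*. There *Tlr4* exceeded *Tlr5* by a ratio of 7.49 (5.81 to 9.93), *Tlr3* and *Tlr2* did not differ beyond counting error, and *Tlr1*, *Tlr6*, *Tlr9*, *Tlr7* and *Tlr8* each had 2 reads or fewer. All these levels are per listed length, which for *Tlr4*, *Tlr5* and *Myd88* was longer than the annotated transcript.

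Summed over *Tlr1* to *Tlr9*, the RPKM was 16.5 in CvP against 6.91 in Epi, a ratio of 2.39. The make-up of this sum differed. *Tlr4* held 77.0% of it in the Epi and 35.8% in the CvP. *Tlr3* and *Tlr2* together held 46.1% in the CvP and 11.6% in the Epi, and *Tlr5* held 13.3% and 10.3%. Without *Tlr4* the sum was 10.6 in CvP against 1.59 in Epi, a ratio of 6.68. By site, the 5 surface receptors summed to 11.9 in CvP against 6.47 in Epi, and the 4 endosomal ones to 4.69 and 0.44, nearly all of it *Tlr3*. The RPKM of *Myd88* was 1.35 times the receptor sum in the CvP and 3.42 times in the Epi.

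**Figure D2:**
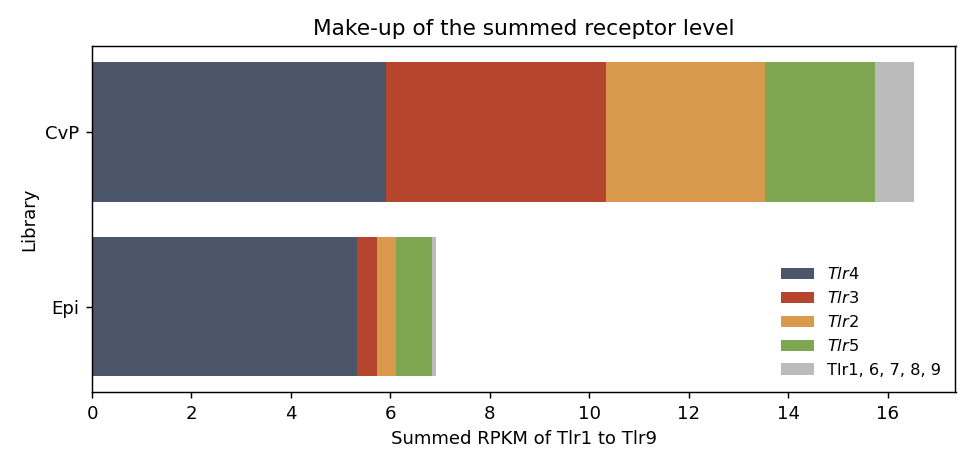
Summed RPKM of *Tlr1* to *Tlr9* in the CvP and the Epi, divided by gene, with *Tlr1*, *Tlr6*, *Tlr7*, *Tlr8* and *Tlr9* drawn as 1 piece. The *Tlr4* piece has nearly the same length in both bars, and the pieces of *Tlr3* and *Tlr2* are the longest of the rest in the CvP only.

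With a ratio above 2 as the limit, 8 of the 10 members were higher in the CvP, against 36.2% of all rows with a symbol. None had a ratio under 1/2, against 4.28% of the rows with a mean RPKM of at least 0.1. Of the 8, 6 had an interval above 1, and *Tlr1* and *Tlr8* did not. The remaining members were *Tlr4* and *Myd88*. A mean RPKM of at least 0.1 was reached by 6 members, of which *Tlr2*, *Tlr3*, *Tlr5* and *Tlr6* passed the limit, against 33.5% of the rows. The 4 members under 0.1 all passed it, and no share of rows at their level was computed. The 36.2% counts rows at 0 in both libraries, which cannot pass. The median log2 ratio, with 0.1 added to each RPKM, was 0.98 over the 10 members and 0.56 over the 14918 rows. Those rows have a mean RPKM of at least 0.1, and over the 6 members that reach it the median was 1.74. The study's own limits, a CvP RPKM above 10 and a ratio above 3, were met by no member and by 2.90% of the rows. *Myd88* passed the first limit alone, and *Tlr2*, *Tlr3* and *Tlr5* were among the 8 that passed the second alone.

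The share of rows past a ratio of 2 depended on their level, being 62.1% at a mean RPKM of 0.1 to 1, 36.1% at 1 to 10 and 11.0% at 10 to 100. The members were therefore set beside rows of like level. Of the rows with a mean RPKM of 1 to 10, 7.33% had a ratio as high as *Tlr3*, 8.19% as high as *Tlr2*, 18.2% as high as *Tlr5* and 82.2% as high as *Tlr4*. For *Tlr6* the share was 21.7% of the rows of 0.1 to 1, and for *Myd88* it was 73.1% of the rows of 10 to 100. Few rows of like level thus had ratios above those of *Tlr3* and *Tlr2*, and most had ratios above those of *Tlr4* and *Myd88*. Where a gene list below is set beside 36.2% of all rows, that share is not matched for level.

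**Figure D3:**
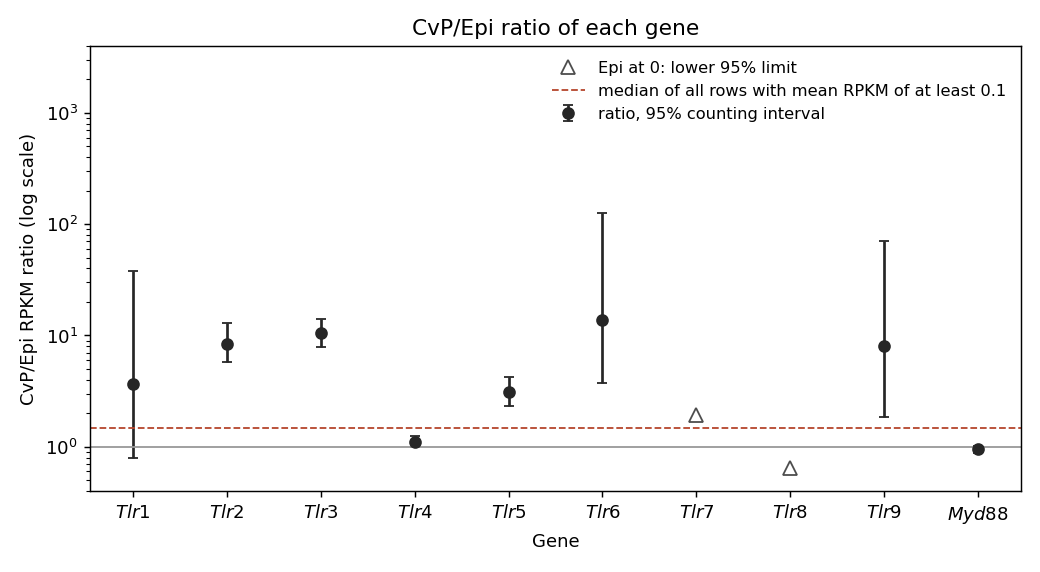
CvP/Epi ratio of each gene on a log scale with 95% exact binomial intervals. Triangles give the lower limit for *Tlr7* and *Tlr8*, at 0 in the Epi. The dashed line marks 1.48, the median of the rows with a mean RPKM of at least 0.1, computed with 0.1 added to each RPKM, while the plotted ratios have nothing added. *Tlr2*, *Tlr3*, *Tlr5*, *Tlr6* and *Tlr9* lie above it with their whole intervals, as does the lower limit of *Tlr7*.

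**Figure D4:**
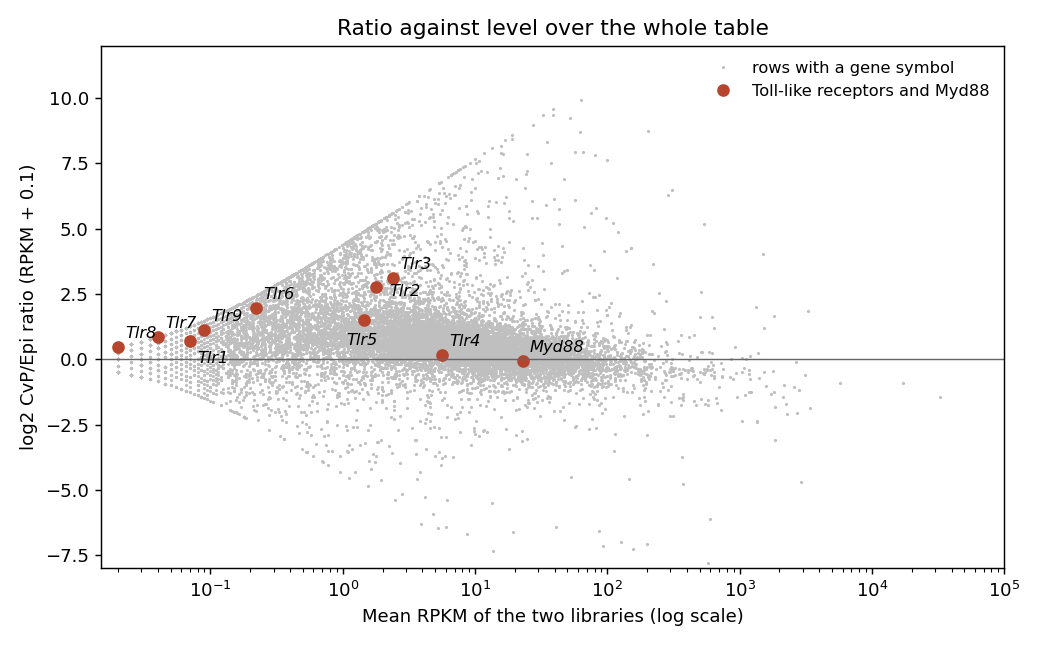
The log2 CvP/Epi ratio, with 0.1 added to each RPKM, against the mean RPKM of both libraries on a log scale, for all rows with a symbol and a mean of at least 0.02 (grey) and the 10 members (red). The cloud lies mostly above 0 at a mean RPKM under 10, and *Tlr2* and *Tlr3* stand near its upper side while *Tlr4* and *Myd88* stand near 0.

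By both levels, the rows nearest to *Myd88* on the log2 scale were *Ranbp9*, *Arhgap32* and *Numb*, at distances of 0.021 to 0.023, and those nearest to *Tlr4* were *Alkbh3*, *Armc5* and *Taf1c*, at 0.012 to 0.020. With only 2 libraries such nearness describes 2 levels and nothing more.

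Promoters are shown for *Tlr2* and *Tlr3*, the members with the most reads among those past the ratio of 2, and for *Myd88*, whose ratio was near 1. RefSeq promoters, on GRCm38.p6, were matched for 8 of the 10 members, all but *Tlr4* and *Tlr7*. Each sequence runs from 250 bases before the start to 10 bases after it, with matches to the NF-kB motif in capitals for *Tlr2* and *Tlr3* and to GAAANNGAAA, the core of the interferon-stimulated response element (ISRE), for *Myd88*. All 3 lie on the minus strand, at chr3:83841599-83841858, chr8:45410371-45410630 and chr9:119340009-119340268:

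*Tlr2*: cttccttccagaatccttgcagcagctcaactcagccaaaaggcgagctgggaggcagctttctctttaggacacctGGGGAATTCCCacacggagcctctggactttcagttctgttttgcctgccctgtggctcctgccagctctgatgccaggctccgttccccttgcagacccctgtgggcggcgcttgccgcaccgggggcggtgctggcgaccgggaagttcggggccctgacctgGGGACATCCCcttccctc

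*Tlr3*: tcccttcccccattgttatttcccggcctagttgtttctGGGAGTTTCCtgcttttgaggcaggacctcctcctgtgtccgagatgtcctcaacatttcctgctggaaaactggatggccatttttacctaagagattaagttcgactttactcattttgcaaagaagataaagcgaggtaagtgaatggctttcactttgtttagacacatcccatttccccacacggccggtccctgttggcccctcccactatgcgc

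*Myd88*: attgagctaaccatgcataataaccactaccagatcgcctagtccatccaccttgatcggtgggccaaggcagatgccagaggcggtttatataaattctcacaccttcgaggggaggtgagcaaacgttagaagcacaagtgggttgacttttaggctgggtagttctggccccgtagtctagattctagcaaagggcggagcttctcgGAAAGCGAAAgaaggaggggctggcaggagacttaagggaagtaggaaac

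Both strands were searched over 300 bases. The NF-kB motif began 173 and 172 bases before the start of *Tlr2*, in overlapping matches, and again 8 bases before it. In *Tlr3* it began 211 bases before the start. No other member's window held this motif, which 8.46% of the 32851 promoters of that length hold. The ISRE core began 40 bases before the start of *Myd88* and, in overlapping matches on the other strand, 116 and 110 bases before one of the starts of *Tlr6*. It is held by 3.44% of promoters. The AP-1 motif, TGACTCA or TGAGTCA, was found 58 bases before the start of *Tlr9* and is held by 5.20%. These matches are letters in a window and were not tied to the levels.

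The 3 receptors of the mouse family outside the members were low. *Tlr13*, a sensor of bacterial ribosomal RNA, had an RPKM of 0.51 in CvP against 0.11 in Epi, a ratio of 4.64 (2.53 to 9.73). *Tlr12* was at 0.11 and 0.01, about 10 reads and 1 read, and *Tlr11* was listed at 0 in both.

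Of 15 genes for co-receptors, carriers, chaperones and processing proteases, 10 had a ratio above 2 (66.7%, against 36.2% of all rows with a symbol) and none one under 1/2. *Cd14*, which hands lipopolysaccharide to TLR4, had an RPKM of 20.4 in CvP against 0.94 in Epi, a ratio of 21.7 (15.9 to 31.0), against 1.11 for *Tlr4* itself. *Lbp*, the lipopolysaccharide carrier of serum, was at 1.07 and 0.02, a ratio of 53.5 (13.2 to 3030.0) from about 1 read in the Epi. *Clec7a*, the beta-glucan receptor Dectin-1, was at 1.29 and 0.02. *Cd180*, a relative of TLR4 on B cells and macrophages, was at 0.42 and 0.05. *Hsp90b1*, the chaperone of most receptors of the family, was at 191 in CvP against 87.5 in Epi, a ratio of 2.19 (2.13 to 2.25), and the protease *Ctsl* was at 187 and 58.7. The lowest ratios were those of *Ctsb*, at 65.0 and 51.0, and *Cnpy4*, at 10.2 and 6.82. Named after their values were seen, *Ly96*, the TLR4 partner MD-2, had an RPKM of 7.14 and 3.57, the 95% limits of their ratio being 1.46 and 2.77, and *Unc93b1*, which carries the endosomal receptors, had 6.43 and 1.28, a ratio of 5.02 (3.94 to 6.45).

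Among the other adaptors 4 of 5 (80.0%, against 36.2% of all rows with a symbol) had a ratio above 2. Of the 4, 3 had an interval above 1. *Pik3ap1*, the signalling adaptor BCAP, had an RPKM of 4.76 in CvP against 0.08 in Epi, a ratio of 59.5 (29.6 to 125). *Tirap*, which brings MYD88 to TLR2 and TLR4, was at 9.46 and 4.27, a ratio of 2.22 (1.92 to 2.57). *Ticam1*, the adaptor of TLR3, was at 4.52 and 2.51, a ratio of 1.80 (1.51 to 2.16), well under that of *Tlr3*. *Sarm1* was at 0.21 and 0.06, and *Ticam2*, the last of the 4, rested on about 3 reads in the CvP and none in the Epi.

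The kinases, ubiquitin ligases and transcription factors downstream of MYD88 or TICAM1 mostly had ratios nearer to 1. Of 26 genes, 22 had ratios between 1/2 and 2, and 4 (15.4%, against 36.2% of all rows with a symbol) lay above 2. By level, the share of rows above 2 was 36.1% at a mean RPKM of 1 to 10 and 11.0% at 10 to 100. The 15.4% lies between these 2 shares. The 4 genes were *Irf8* (1.53 and 0.21), *Nfkb2* (7.47 and 2.77), *Relb* (3.09 and 1.26) and *Irf7* (6.72 and 2.88). *Irak1*, the kinase recruited to MYD88, had an RPKM of 20.9 in CvP against 10.9 in Epi, a ratio of 1.92 (1.79 to 2.06). The lowest ratios were those of 2 ubiquitin ligases, *Peli1*, at 17.4 and 30.2, a ratio of 0.575 (0.542 to 0.609), and *Traf6*, at 13.3 and 22.1, a ratio of 0.601 (0.570 to 0.633). *Tab2*, whose product binds ubiquitin chains and links them to the kinase TAK1, was at 22.8 and 36.9, and *Ube2n*, the conjugating enzyme of TRAF6, at 28.1 and 28.3. Other genes of the TAK1 complex, named after their values were seen, lay above 1, *Tab1* with a ratio of 1.79 (1.56 to 2.04), *Map3k7* with 1.34 (1.26 to 1.42) and *Tab3* with 1.22 (1.11 to 1.35), the last of which changes its side of 1 on division by the median ratio. *Traf6*, *Peli1* and *Tab2* stayed below 1 under both other scalings.

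Of 15 inhibitors, 9 had a ratio above 2, against 36.2% of all rows and 62.1% and 36.1% of those with a mean RPKM of 0.1 to 1 and 1 to 10. *Sigirr*, a restraining receptor of the interleukin-1 family, had an RPKM of 4.16 in CvP against 0.56 in Epi, a ratio of 7.43 (5.11 to 11.2). *Tnfaip3*, the deubiquitinase A20, was at 2.08 and 0.51, a ratio of 4.08 (3.08 to 5.46), *Nfkbie* was at 1.07 and 0.17, and *Trim30a* was at 0.57 and 0.03. The most abundant inhibitors had ratios near 1, *Tollip* at 32.9 and 38.2 and *Nfkbia* at 29.3 and 29.2. Among 7 receptors of the interleukin-1 family, 3 lay above 2, a share of 42.9% and near that of all rows. *Il1r2*, the decoy receptor, had 84.4 in CvP against 30.5 in Epi, a ratio of 2.77 (2.59 to 2.97), *Il18r1* had 0.43 and 0.05, and *Il18rap* had 0.33 and 0.03. *Il1rl2*, the receptor of interleukin-36, had 23.8 and 19.6, and *Il1r1* had 5.54 and 2.96.

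Of 24 transcripts that Toll-like receptor signalling can induce, 22 had a row, of which 17 (77.3%, against 36.2% of all rows) had a ratio above 2. By level, the share of rows above 2 was 62.1% at a mean RPKM of 0.1 to 1 and 36.1% at 1 to 10. Of the 17, 13 had an interval above 1, while *Ccl3*, *Ccl5*, *Nos2* and *Csf2*, with 7 reads or fewer, did not. *Saa3*, with about 1 read in all, was the only one under 1/2. These 5 were named after their values were seen. *Il1a* had an RPKM of 70.6 in CvP against 19.7 in Epi, a ratio of 3.59 (3.36 to 3.85). *Nfkbiz*, an atypical inhibitor that drives a subset of NF-kB genes, was at 18.2 and 7.04. *Lcn2*, the siderophore-binding lipocalin, was at 8.51 and 0.05, a ratio of 170 (36.0 to 8042) from about 1 read in the Epi. *Csf3* was at 2.72 and *Ccl20* at 2.07 in the CvP, and both were listed at 0 in the Epi. Against the floor of 3 reads *Csf3* was at least 35.75-fold and *Ccl20* at least 15.4-fold higher, and the lower limits of their intervals were 28.58 and 12.05. *Cxcl2* was at 2.28 and 0.04, and *Zc3h12a* was at 12.0 and 9.53.

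Of 19 genes of other pattern recognition, among them *Clec7a* again, 9 had a ratio above 2 (47.4%, against 36.2% of all rows) and 1 a ratio under 1/2. Of the 9, 8 had an interval above 1, and *Nlrc4*, named after its value was seen, did not. *Tmem173*, the adaptor STING of cytosolic DNA sensing, had an RPKM of 12.0 in CvP against 0.06 in Epi, a ratio of 200.0 (74.9 to 709). *Nlrp10* was at 16.0 in CvP against 39.7 in Epi, a ratio of 0.403 (0.383 to 0.425). *Pycard*, the inflammasome adaptor ASC, was at 68.6 and 79.3, and *Mavs*, the adaptor of the RNA helicase sensors, was at 17.3 and 13.2.

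**Figure D5:**
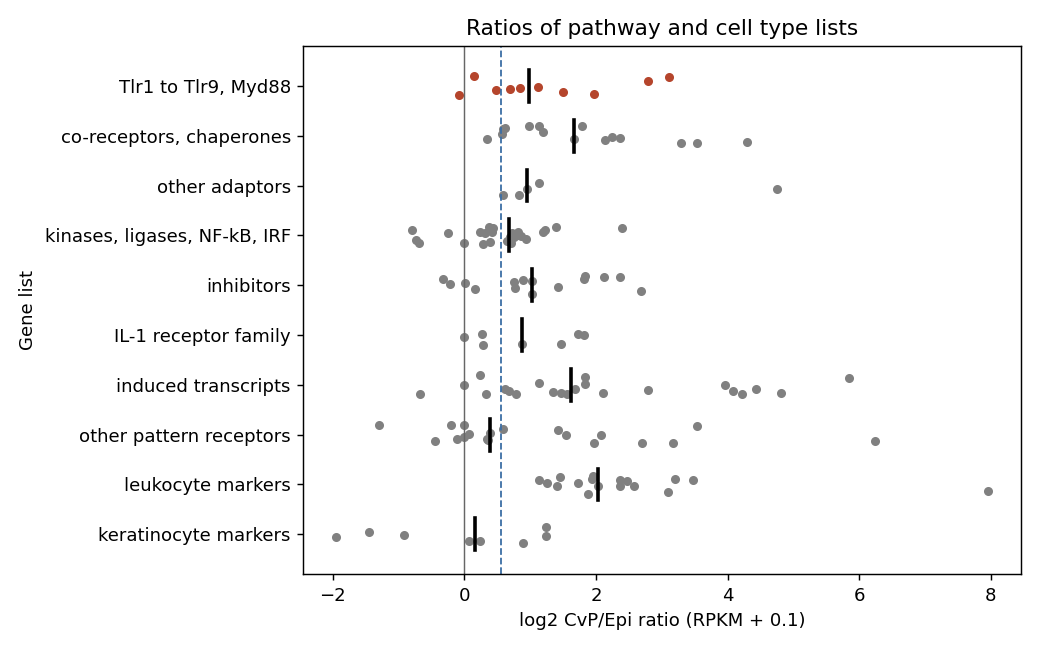
The log2 CvP/Epi ratio, with 0.1 added to each RPKM, of every gene with a row in 10 lists. Points are genes, black bars are list medians, the grey line is 0 and the dashed line is the median of 0.56 over the rows with a mean RPKM of at least 0.1. The lists were not filtered by level. The members' median of 0.98 lies between those of the downstream kinases and factors, 0.67, and of the co-receptors, 1.67.

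Markers of leukocytes were higher in the CvP with the receptors. All 17 leukocyte and macrophage markers with a row had a ratio above 2, against 36.2% of all rows with a symbol. Among those with reads in the Epi, the ratios ran from 2.43 for *Cd68* to 306 for *Lyz2*. The 17 summed to an RPKM of 191 in CvP against 13.3 in Epi, a ratio of 14.4. Of the defining markers of macrophages, *Emr1* was at 0.79 and 0.06, *Csf1r* at 2.74 and 0.67, and *Fcgr1* at 0.12 and 0. Without *Lyz2*, left out after its value was seen, the sums were 59.0 and 12.8, a ratio of 4.60. In a bulk sample fewer cells of a type and less RNA per cell cannot be told apart. The intervals of *Tlr2* and *Tlr3* lay between these ratios of sums, those of *Tlr5*, *Tlr4* and *Myd88* lay under both, and those of the other members reached across at least 1 of them. Of the dendritic and Langerhans cell markers 7 of 10 (70.0%, against 36.2% of all rows) had a ratio above 2. The sums of the 10 were 125 and 46.5, and the Langerhans cell marker *Cd207* was at 0.85 in CvP against 1.33 in Epi. Lymphocyte markers summed to 1.43 and 0.35, and *Cd79a*, *Cd79b*, *Cd3d* and *Cd3e* were listed at 0 in the Epi. Of the neutrophil and mast cell markers 5 of 10 had a row and 3 a ratio above 2, the sums of 30.5 and 2.45 being mostly *Kit*, and *Elane* was listed at 0 in both. The part of leukocytes in the receptor ratios was not tested.

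The other cell types divided between the libraries. Skeletal muscle markers summed to 6.78 in CvP against 58.2 in Epi. Of these markers, 7 of 8 had a ratio under 1/2, against 4.28% of the rows with a mean RPKM of at least 0.1. Fibroblast markers summed to 27.8 and 129, nearly all of it *Dcn*, at 26.1 and 128. Of the 8 fibroblast markers, 6 had a ratio under 1/2, against the same 4.28%. Of these 6, all but *Dcn* were at an RPKM of 0.25 or less in both libraries. *Pdgfra* went the other way, at 1.30 and 0.07, a ratio of 18.6 (10.5 to 34.9). Endothelial markers were at sums of 3.37 and 0.92, and at 0.88 and 0.85 without *Tek*, left out after its value was seen. Schwann cell markers were at sums of 15.3 and 10.2. Their part in the levels of the members was not tested either.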

How the data were processed

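Poly(A) RNA of the 2 tissues was made into TruSeq libraries, sequenced as single-end reads of 75 bases and mapped by the authors with Bowtie 0.12.7 to NCBI37/mm9. The deposited RPKM values were made by the authors with ERANGE, which divides the reads of a gene by the length of its exons. Its options are not given in the sources used here. The authors' CvP/Epi column was not used. No other value columns of samples were present.

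Members and gene lists were chosen with earlier results of these data known. The 10 members were named in full, and other genes by their CvP RPKM or, with at least 20 estimated reads, by ratio. The genes nearest to *Myd88* and the highest receptor were taken by distance on the log2 scale. Mapped reads came from the RPKM step in 163 rows of 0.1 kb, and reads per gene from RPKM times length, using the listed length or, if smaller, that of the longest GENCODE M1 coding transcript. Estimated reads are approximate. RPKM is printed to 0.01, which limits genes of few reads. The median log2 ratio used 0.1 as pseudocount, so the fold of low genes is understated. The floor was 3 reads per library. Depth recovery and interval coverage were tested on simulated data. Alternatives were other folds, pseudocounts, filters and scalings. Python 3.11.15, numpy 2.4.6, pandas 2.3.3, scipy 1.17.1 and matplotlib 3.10.9 were used.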

Additional observations from a re-analysis of the deposited data

How the results depend on the processing

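No paired analysis was possible because only 1 pooled library of either tissue was sequenced. The number of members with a ratio above 2, 8, was the same at fold limits of 1.5 and 3, with ratios divided by their median, and on rescaling to a common sum. It was 2 with a pseudocount of 1, which lowers the ratio of low genes, 3 among the 5 members with a mean RPKM of at least 1, and, in alternatives chosen after seeing the data, 6 with an interval above 1 and 4 with a mean RPKM of at least 0.1. The number under 1/2 was 0 throughout. The study's limits were met by 0 members, by 1 (*Tlr3*) after rescaling, by 2 with the CvP minimum lowered to an RPKM of 3 and by 3 with it lowered to 1. The median log2 ratio of 0.98 was 0.58 after division by the median ratio, 0.16 with a pseudocount of 1, 1.80 after rescaling, 1.51 at a mean RPKM of at least 1 and 1.74 at 0.1. Rescaling raises all RPKM values against the fixed pseudocount and the fixed CvP minimum as well. With the pseudocount rescaled too, an alternative chosen after seeing the data, the median was 1.26. Of the ratios of single members, *Tlr4* and *Myd88* changed their side of 1 with the scaling. For *Tlr1*, *Tlr6*, *Tlr7*, *Tlr8* and *Tlr9* the depth was the limit, with 2 reads or fewer in the Epi.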
